A study of Mus musculus with 3 samples.

Results

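The proteasome genes of mouse spleen dendritic cells (DCs) were taken as every measured gene whose symbol starts with Psma, Psmb, Psmc, Psmd, Psme, Psmf or Psmg. The rule found 50 genes among 31053. They comprised 8 genes of the alpha ring, 4 non-catalytic genes of the beta ring, 3 standard catalytic genes (Psmb5, Psmb6, Psmb7), 3 immunoproteasome catalytic genes (Psmb8, Psmb9, Psmb10) and the thymus-specific catalytic gene Psmb11. A further 6 encode the ATPases of the regulatory particle, 14 encode its other subunits and chaperones, 5 encode activators, 1 encodes the inhibitor Psmf1 and 4 encode assembly chaperones (Psmg). The symbol rule also took in Psmc3ip, a recombination factor that is no proteasome subunit. The question followed here was how the 3 immunoproteasome genes were set against the 3 standard ones across classes of DC and across the treated and untreated mice.

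The proteasome is a barrel of stacked rings that cuts ubiquitin-marked proteins into peptides. The cutting sites sit in the beta ring: Psmb6 carries the caspase-like, Psmb7 the trypsin-like and Psmb5 the chymotrypsin-like site. Immune cells, and other cells given interferon, can build Psmb9, Psmb10 and Psmb8 into the same places, which shifts the peptides that are made towards those that class I MHC molecules bind. Psme1 and Psme2 form a ring that caps the barrel and is also raised by interferon. DCs present antigen to T cells, and among them the cDC1 type is known for presenting material from other cells on class I MHC. Psmb8 and Psmb9 lie within the MHC region beside the Tap1 and Tap2 genes, whose products carry peptides into the endoplasmic reticulum.

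Spleen DCs of C57BL/6 mice were profiled by droplet RNA sequencing of transcript 3′ ends. The mice were WT or bore leukemia (coded AML in the hashtag names), and had received vehicle or panobinostat, an inhibitor of histone deacetylases, for 2 days. DCs were prepared by density gradient, a sort of GFP-negative cells and magnetic removal of other cells. Every hashed sample was labelled with its own barcoded antibody (hashtag) and all were pooled in 1 capture. Leukemia had 2 hashed samples with vehicle and 2 with panobinostat, numbered 1 and 2, and WT had 1 with each. Whether a leukemia group's 2 samples came from separate animals is not stated in the labels, so p-values measure the spread between hashed samples, which may be technical. Every sample shared 1 capture.

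Of 38717 barcodes, 19024 carried 1 hashtag and passed the filters, with a median of 6075 unique molecular identifiers (UMIs, counted transcripts). No barcode occurred more than once. Classes were named from clusters of the RNA counts and from markers: 2673 pDC-like cells, 3387 cDC1-like, 4043 cDC2-like and 3641 mature DC-like. The proteasome genes and the lists below were kept out of the clustering. Depth per class and sample ran from 207647 UMIs, in the 39 pDC-like cells of WT panobinostat, to 16473796. All 10 pDC markers and all 10 mature DC markers were highest in their own class among these 4, as were 9 of 10 cDC1 markers but only 5 of 10 cDC2 markers, with 4 of the cDC2 markers higher in pDC-like cells. The summed cDC2 markers stood at 605 to 808 CPM (UMIs of a gene scaled to a common total per class and sample) in cDC2-like cells and at 930 to 1139 in pDC-like cells. Leukemia vehicle 2 stood apart: its cells had a median of 11918 UMIs against 5249 to 7874 in the other samples, and 49.0% of its cells had their own hashtag at 5 times the next one or more, against 74.2% to 97.9% in the others, so its cells are the least surely assigned. Of its 2148 cells, 627 lay in the large mast or basophil-like cluster and 392 in the dividing erythroid-like one, both deep. Its DC-like cells had medians of 5118 (pDC), 12730 (cDC1), 6170 (cDC2) and 4642 (mature DC) UMIs, of which only the cDC2 one lay outside the range of the other samples, at 4810 to 6088. WT panobinostat pDC-like cells carried 1161 CPM of plasma cell markers against 13.1 to 35 in the other samples, and its part in the values below was not tested.

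Immunoproteasome genes differed most between classes in Psmb9, which was highest in cDC1-like cells of every sample. Psmb9 stood at 776 CPM at the lowest, 990 at the median and 1006 at the highest of the 6 cDC1-like samples. In mature DC-like cells it ran from 480 over a median of 549 to 646, in pDC-like cells from 414 over 431 to 467, and in cDC2-like cells from 381 over 397 to 433. No sample of another class reached the lowest cDC1-like sample, while the pDC-like and cDC2-like ranges overlapped.

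Psmb8 followed the order cDC1-like, mature DC-like, pDC-like and cDC2-like. It ran from 868 over a median of 1177 to 1319 CPM in cDC1-like cells, from 892 over 1034 to 1293 in mature DC-like cells, from 783 over 847 to 933 in pDC-like cells and from 599 over 635 to 651 in cDC2-like cells. The first 2 classes overlapped widely, and cDC2-like cells lay below every other sample. Within cDC1-like cells the WT vehicle sample was the lowest, at 868.

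Psmb10 had another order of CPM means, with pDC-like cells first, although against mature DC-like cells the direction turned with the scaling (log2 0.22 with total UMIs alone, -0.16 with TMM, neither called). It ran from 149 over a median of 239 to 264 CPM in pDC-like cells, from 179 over 207 to 245 in mature DC-like cells, from 121 over 134 to 146 in cDC2-like cells and from 91.6 over 121 to 130 in cDC1-like cells. The 149 of WT panobinostat was far from the other pDC-like samples, which stood at 224 to 264, and came from the 39 cells named above. So the class with the highest mean of Psmb8 and Psmb9 had the lowest mean of Psmb10, in a range that overlapped that of cDC2-like cells.

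**Figure D1:**
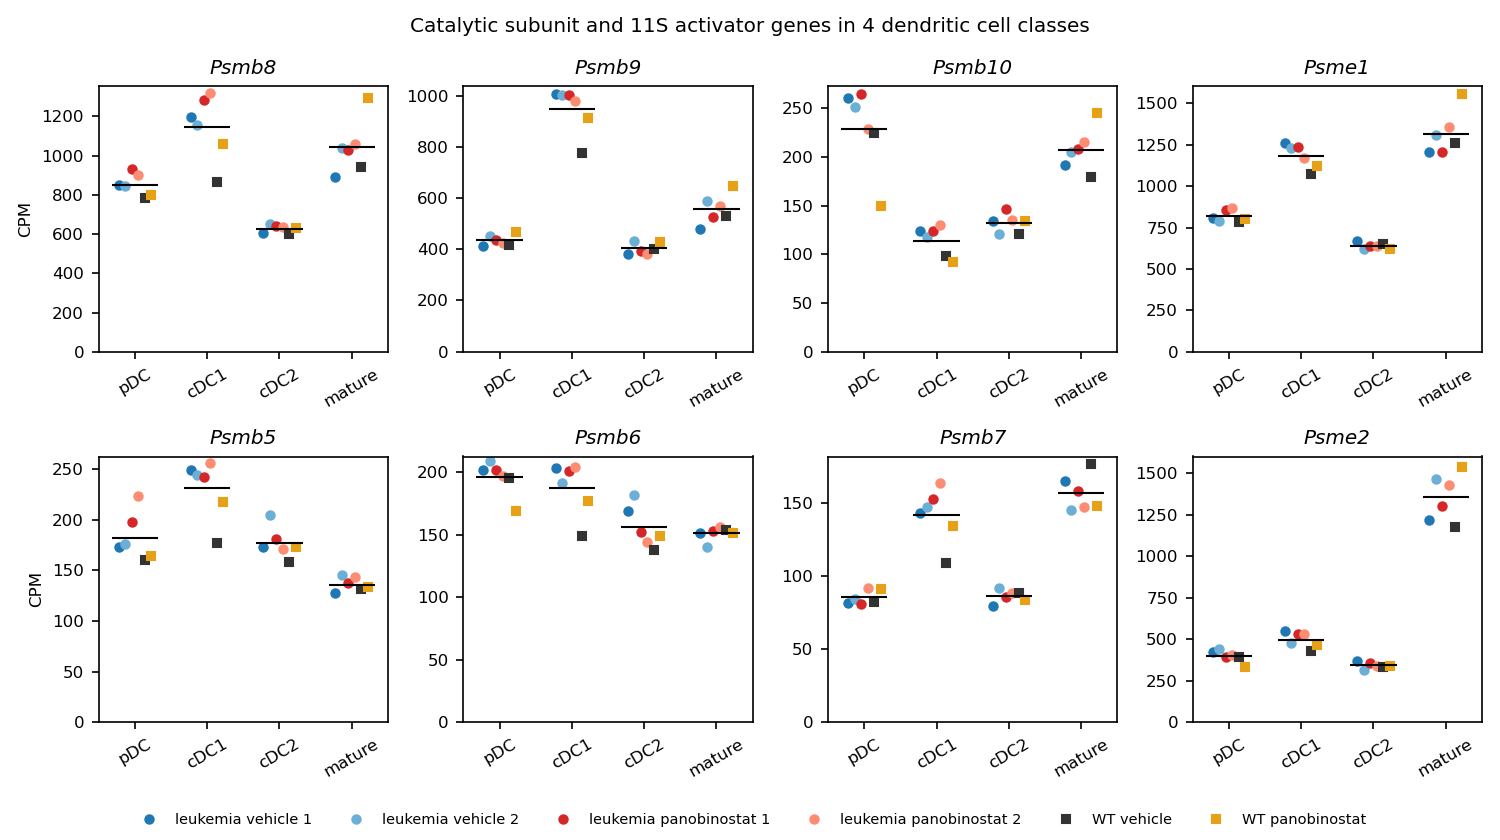
Levels of the 6 catalytic genes and of the activators Psme1 and Psme2 in CPM (vertical axis, 1 panel per gene) in each DC class (horizontal axis), 1 point per hashed sample with the mean over the 6 samples as a line. Psmb9 in cDC1-like cells sits at 776 to 1006, above all samples of the other classes. Psmb10 has its highest mean in pDC-like cells, in a range that overlaps that of mature DC-like cells.

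The 3 standard genes did not share 1 order either. Psmb5 was highest in cDC1-like cells, at 177 to 256 CPM with a median of 243, and lowest in mature DC-like cells, at 128 to 145 with a median of 135. It stood at 160 to 223 in pDC-like cells and at 158 to 205 in cDC2-like cells. Psmb7 was high in mature DC-like cells (145 to 177, median 153) and cDC1-like cells (109 to 164, median 145), and low in pDC-like cells (80.8 to 92.2) and cDC2-like cells (79.7 to 91.8). These pairs of classes did not overlap for Psmb7. Psmb6 varied least in CPM, between 196 ± 14.1 CPM (SD, n = 6) in pDC-like cells and 151 ± 5.47 in mature DC-like cells. With TMM, pDC-like cells were level with mature DC-like cells (log2 0.01) and below cDC1-like cells (-0.27), neither called. Psmb11 had 1 UMI in all 4 classes together, and the testis-associated alpha subunit Psma8 had 125.

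The bases before the start of 4 of these genes and of Tap1 were read from the RefSeq promoter table (GRCm38.p6), because Psmb8, Psmb9 and Tap1 lie together on chromosome 17. Of the 50 genes, 42 had a promoter there, with 45 promoters among them. Capitals mark matches to 5 motifs searched on both strands in the 250 bases before and 50 after the start: the interferon element (GAAA, any 2 bases, GAAA), the STAT element TTCNNNGAA, the antioxidant element TGACNNNGC, CCAAT and the SP1 element GGGCGG. In the annotation the Psmb8 gene spans chr17:34197721-34201454 on the plus strand and Psmb9 spans chr17:34181987-34187764 on the minus strand. Alternative first exons of both cover these upstream bases, so only matches with 10 bases on either side are shown for them and for Tap1, at chr17:34198088-34198116 (Psmb8, plus strand) and chr17:34187370-34187395 (Psmb9 on the minus strand, Tap1 on the plus strand). The longer stretches are chr14:54618023-54618245 for Psmb5 (minus strand) and chr11:70525107-70525356 for Psmb6 (plus strand), outside annotated untranslated exons.
Psmb8: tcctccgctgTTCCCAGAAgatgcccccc
Psmb9: cgcgatgatgGGGCGGggcctcagtc
Tap1: gactgaggccCCGCCCcatcatcgcg
Psmb5: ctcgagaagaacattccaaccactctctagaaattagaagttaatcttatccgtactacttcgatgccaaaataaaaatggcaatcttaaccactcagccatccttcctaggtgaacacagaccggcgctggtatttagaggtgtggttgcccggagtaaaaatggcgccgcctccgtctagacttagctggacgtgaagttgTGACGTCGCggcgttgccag
Psmb6: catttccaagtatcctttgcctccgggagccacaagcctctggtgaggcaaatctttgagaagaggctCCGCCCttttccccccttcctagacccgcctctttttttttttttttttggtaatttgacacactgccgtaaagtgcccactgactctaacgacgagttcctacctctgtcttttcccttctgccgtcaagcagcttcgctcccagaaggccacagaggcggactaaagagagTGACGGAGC
The Psmb8 match to the STAT element starts 97 bases before the start site, and 8.30% of 32851 promoters hold such a match. The SP1 match of Psmb9 and that of Tap1 are the same bases read from opposite strands. So is a CCAAT match, not printed, 8 bases before the start of Psmb9 and 222 before that of Tap1, and the 2 genes' promoter windows share 275 bases. The antioxidant element occurs 47 bases before the start of Psmb5 and 9 bases before that of Psmb6, against a share of 12.4% of all promoters. Of the catalytic genes not printed, Psmb10 held no match to any of the 5 motifs and Psmb7 had no RefSeq promoter entry. Psme1 held the interferon element 9 bases after its start. Among the proteasome gene promoters 5 of 45 (11.1%) held the interferon element against 3.44% of all, 3 (6.67%) the STAT element, 6 (13.3%) the antioxidant element, 15 (33.3%) CCAAT against 37.4%, and 24 (53.3%) the SP1 element against 35.7%. These are matches of letters, and no binding was measured.

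The 3 pairs of genes that hold the same place in the beta ring gave ratios that differed between classes within the same sample. UMIs of 2 genes from 3′ ends are not protein amounts, so the ratio is read only between classes. The geometric mean ratio of Psmb8 to Psmb5 was 7.59 in mature DC-like, 4.96 in cDC1-like, 4.70 in pDC-like and 3.56 in cDC2-like cells. That of Psmb9 to Psmb6 was 5.06 in cDC1-like, 3.67 in mature DC-like, 2.60 in cDC2-like and 2.23 in pDC-like cells. That of Psmb10 to Psmb7 was 2.64 in pDC-like, 1.53 in cDC2-like, 1.32 in mature DC-like and 0.805 in cDC1-like cells. Thus each pair had a different leading class.

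Of 18 such class differences, 15 went the same way in 6 of 6 samples and had an adjusted p of 0.0375 (two-sided exact sign-flip permutation test, n = 6, p = 0.0312, the smallest it can give; Benjamini-Hochberg over the 18). The largest was Psmb10 to Psmb7, 3.28-fold higher in pDC-like cells than in their cDC1-like counterparts, at 1.71 ± 0.28 on the log2 scale (SD, n = 6). Psmb9 to Psmb6 was 1.95-fold higher in cDC1-like than in cDC2-like cells (log2 0.96 ± 0.15). Psmb8 to Psmb5 was 2.13-fold higher in mature DC-like than in cDC2-like cells (log2 1.09 ± 0.18). Psmb8 to Psmb5 did not differ detectably between pDC-like and cDC1-like cells, with single differences from -0.35 to 0.03 (exact permutation p = 0.5). Psmb10 to Psmb7 did not pass between pDC-like and mature DC-like cells, at 1.0 ± 0.56 with 5 of 6 samples in 1 direction (exact permutation adjusted p = 0.0703), or between mature DC-like and cDC2-like cells, at -0.21 ± 0.27 (exact permutation adjusted p = 0.199).

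The share of immunoproteasome UMIs among the UMIs of all 6 catalytic genes put the same counts in 1 number per sample. It was 80.1% ± 2.07 (SD, n = 6) in mature DC-like cells, 79.8% ± 0.255 in cDC1-like cells, 76.6% ± 0.738 in pDC-like cells and 73.6% ± 1.20 in cDC2-like cells. The 6 cDC1-like samples lay between 79.5% and 80.2% although their Psmb8 levels ranged from 868 to 1319 CPM. Mature DC-like samples ranged from 77.9% to 83.5%, with WT panobinostat the highest. The pDC-like samples (75.2% to 77.3%) lay above all cDC2-like ones (71.6% to 74.7%).

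Cells of other kinds in the same capture were pooled over samples, with exact binomial 95% intervals that cover counting error only. Erythroid-like cells had 28.6% (27.9% to 29.3%) and mast or basophil-like cells 35.8% (35.1% to 36.4%). Leukemia vehicle 2 gave 40.3% and 43.0% of these cells, and without it the shares were 31.3% (30.3% to 32.3%) and 37.2% (36.3% to 38.1%). The mast or basophil-like value is mainly that of 1 cluster of 1425 cells (35.2%), which had 4 raised markers and merged with erythroid-like cells at a Leiden resolution of 0.5, while a cluster of 38 cells with 7 raised markers had 73.6%. In erythroid-like cells Psmb8 was 111 CPM and Psmb9 86.0, while Psmb5 was 263 and Psmb6 239. In mast or basophil-like cells Psmb8 was 174 and Psmb5 275. Monocyte-like cells had a share of 74.7%, macrophage-like cells 72.0%, B cell-like cells 70.4%, endothelial-like cells 60.1% and megakaryocyte-like cells 55.8%. The largest erythroid-like cluster was led by cell division genes (Ube2c, Hmmr, Ccnb1) and had a share of 26.8%.

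**Figure D2:**
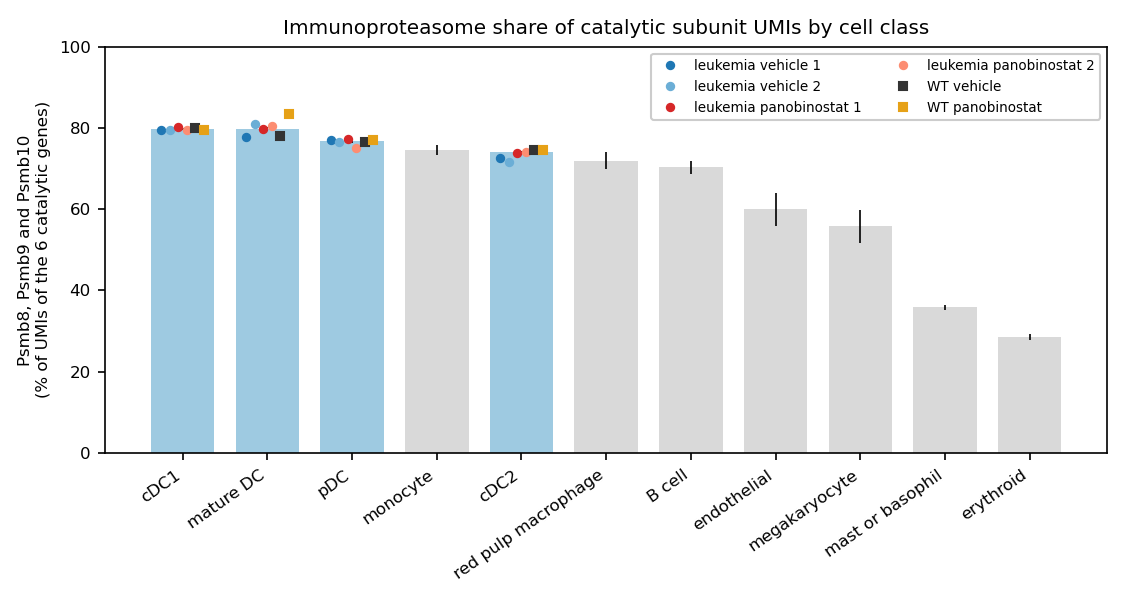
Immunoproteasome share, the UMIs of Psmb8, Psmb9 and Psmb10 as a percent of the UMIs of the 6 catalytic genes (vertical axis), by class. Bars are cells pooled over samples with exact binomial 95% intervals, and points are the hashed samples of the 4 DC classes. DC-like samples lie between 71.6% and 83.5%, and pooled erythroid-like cells at 28.6%.

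Of the 5 activator genes, Psme2 had its highest levels in mature DC-like cells in every sample. Psme2 ran from 1176 over a median of 1367 to 1540 CPM there, against 427 to 552 in cDC1-like, 332 to 440 in pDC-like and 316 to 368 in cDC2-like cells, with no overlap. Its partner Psme1 ran from 1208 over 1285 to 1558 in mature DC-like cells and from 1072 over 1201 to 1259 in cDC1-like cells, which overlapped, and was 817 ± 35.9 in pDC-like and 639 ± 18.2 (SD, n = 6) in cDC2-like cells. So Psme2 differed 3.96-fold between its highest and lowest class and Psme1 2.06-fold. Psme3, whose product forms a nuclear activator ring, was lowest in mature DC-like cells (22.9 CPM) and highest in cDC1-like cells (38.2). Psme4 varied 1.14-fold, from 25.8 in cDC2-like cells to 22.8 in mature DC-like ones. Psme2b, a near copy of Psme2 whose reads cannot be split from it with certainty, stood at 17.9 CPM in cDC2-like and 6.13 in cDC1-like cells. The inhibitor Psmf1 was at 22.5 in pDC-like cells and at 16.8 to 17.6 in the others.

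Spread between classes was read over all groups together, catalytic genes and activators included. Among the 48 genes with 1000 or more UMIs in the 4 classes, the median fold of highest over lowest class mean was 1.46. Of these, 26 genes were under 1.5-fold and 10 at 2-fold or more. The 10 were Psme2, Psmg2, Psme2b, Psmc3ip, Psmg4, Psmg1, Psmb9, Psme1, Psmd9 and Psmb10, with Psmg2 at 3.23 and Psmb9 at 2.35. The same spread over all genes was not computed. Levels of the 6 base ATPases, which unfold the substrate, summed to 459, 454, 440 and 449 CPM in pDC-like, cDC1-like, cDC2-like and mature DC-like cells. Within this group Psmc3 had the highest level (103 to 124 between classes) and Psmc1 the lowest (33.1 to 41.7). The other regulatory particle genes summed to 1011, 1012, 985 and 1051 CPM in the same order. Among them Psmd8 (143 to 176) had the highest mean in 3 of the 4 classes, with Psmd4 level with it in mature DC-like cells (164 against 163), and Psmd5 the lowest (10.6 to 19.3). Psma7 (359 to 491) led the alpha ring, and Psmb1 (350 to 406) led the non-catalytic beta ring, in which Psmb2 had the lowest mean in mature DC-like cells (182).

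Sample by sample, 4 genes had a leading class whose 6 samples lay above all others: Psmb9 and Psma3 in cDC1-like cells, Psme2 in mature DC-like cells and Psmd9, an assembly chaperone of the ATPase ring, in pDC-like cells. The share of all genes with such a class was not counted, so the 4 are described only. Psma3 ran from 338 to 435 CPM in cDC1-like cells against 215 to 314 elsewhere. Psmd9 ran from 38.2 to 67.4 in pDC-like cells against 20 to 36.3 elsewhere. Assembly chaperones diverged: Psmg4 was highest in mature DC-like cells (143 to 220) and lowest in cDC2-like cells (60.1 to 85.5). Psmg1 and Psmg2, which form a pair that helps to build the alpha ring, were lowest in mature DC-like cells, at 6.19 ± 2.22 and 8.08 ± 2.67 CPM (SD, n = 6). Psmg3, the partner of Psmg4, had its highest CPM mean in pDC-like cells (36.2) and its lowest in mature DC-like cells (21.9). With TMM no assembly chaperone was called between pDC-like and cDC1-like cells.

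Differences between classes were tested with edgeR's quasi-likelihood test on the summed counts, with the hashed sample as a block, over all genes. A gene was called at a Benjamini-Hochberg adjusted p under 0.05 and a change of 1.5-fold or more. The fit uses TMM scaling (a scaling that sets most genes to no change), so its log2 fold changes can differ from the ratio of CPM levels. With TMM the median of all genes lay between -0.03 and 0.03 in the class comparisons. Dividing by total UMIs alone brought it to 0.38 (pDC over cDC1), 0.12 (pDC over cDC2), 0.38 (pDC over mature DC), -0.27 (cDC1 over cDC2), 0.0010 (mature DC over cDC1) and -0.29 (mature DC over cDC2). With that scaling the calls among all genes were 4262 higher and 1767 lower of 10739 in pDC over cDC1. They were 2772 and 2094 of 10509 in pDC over cDC2 and 4200 and 2182 of 10266 in pDC over mature DC. For cDC1 over cDC2 they were 1156 and 3027 of 10512. Mature DC gave 2993 and 2779 of 10640 over cDC1 and 1917 and 3596 of 10391 over cDC2.

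The proteasome genes called between pDC-like and cDC1-like cells were mostly lower in pDC-like cells. Of 48 tested, 16 were called lower (33.3%, against a background of 24.3% of all genes) and 2 higher (4.17%, background 25.7%), with a median log2 fold change of -0.43 against 0.02 over all genes. The 5 largest decreases were in Psmb9 (-1.48 ± 0.06, SE, edgeR adjusted p = 5.69e-17), Psmc3ip (-1.13), Psmb7 (-1.09), Psma3 (-1.07) and Psme1 (-0.90). Psmb8 was lower by -0.78 ± 0.06 (edgeR adjusted p = 8.19e-12), Psmb5 by -0.69 and Psme2 by -0.67. Psmb10 was higher by 0.68 ± 0.07 (edgeR adjusted p = 1.08e-08) and Psmd9 by 0.60. Psmb6 stood at -0.27 ± 0.07, short of 1.5-fold. With total UMIs alone the counts were 3 higher and 4 lower and the median was -0.07 while all genes moved to 0.38. Under that scaling 70.7% of all called genes were higher, against 51.4% with TMM.

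Against cDC2-like cells the same pDC-like cells differed in few proteasome genes. Of 48 tested, 2 were called higher (4.17%, background 22.6%) and 2 lower (4.17%, background 22.2%), with a median of 0.01 over them and over all genes. Psmb10 was higher by 0.72 ± 0.08 (SE, edgeR adjusted p = 3.09e-11) and Psmg4 by 0.87. Psmc3ip was lower by -1.62 and Psme2b by -0.73. Psmb8 differed by 0.31 ± 0.06, under 1.5-fold. Psmb9 stood at -0.01 ± 0.06, Psmb5 at -0.07, Psmb6 at 0.24, Psmb7 at -0.16, Psme1 at 0.22 and Psme2 at 0.11. Without leukemia panobinostat 1 the calls numbered 7 rather than 4.

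The genes called lower in pDC-like than in mature DC-like cells were spread over several groups. Of 48 tested, 13 were called lower in pDC-like cells (27.1%, background 28.4%) and 2 higher (4.17%, background 28.0%). The share called lower was close to the background. They were 4 regulatory particle genes, 3 of the alpha ring, 2 activators, 2 immunoproteasome genes, 1 standard catalytic gene and 1 assembly chaperone. The median was -0.37 against 0.03 over all genes, and -0.01 against 0.38 with total UMIs alone, which made 6 calls higher and 3 lower. The 5 largest were Psme2 (-2.12 ± 0.09, SE, edgeR adjusted p = 1.87e-20), Psmb7 (-1.29), Psme1 (-1.06), Psmd1 (-0.79) and Psma1 (-0.73). Psmb9 stood at -0.72 ± 0.08 and Psmb8 at -0.66 ± 0.09, both called. Psmg2 (0.83) and Psmg1 (0.81) were higher in pDC-like cells. Psmb10 (-0.16, edgeR adjusted p = 0.158), Psmb5 (0.05) and Psmb6 (0.01) were not called. Of all calls 65.8% were higher in pDC-like cells with total UMIs alone and 49.7% with TMM.

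The 2 conventional DC classes differed in 15 proteasome genes, nearly all higher in cDC1-like cells. Of 49 tested, 14 were called higher (28.6%, background 15.8%) and 1 lower (2.04%, background 18.8%). The median was 0.40 against -0.02 over all genes. The 5 largest were Psmb9 (1.46 ± 0.06, SE, edgeR adjusted p = 3.74e-13), Psme1 (1.12), Psmb8 (1.09 ± 0.06), Psmb7 (0.93) and Psma3 (0.82). By group, 4 of 8 alpha ring genes, 2 of 3 standard catalytic genes, 2 of 3 immunoproteasome genes, 2 of 5 activators and none of 6 base ATPases were called higher. Psme2 stood at 0.77 and Psmb5 at 0.62, both called, and Psme2b was lower by -1.26. Psmb6 (0.51) fell short of 1.5-fold, and Psmb10 was level at 0.01 ± 0.07. With total UMIs alone there were 4 calls higher and 2 lower, a median of 0.16 against -0.27 over all genes, and 27.6% rather than 45.7% of all calls were higher.

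Mature DC-like cells against cDC1-like cells gave changes in both directions. Of 48 tested, 4 were called higher (8.33%, background 28.6%) and 7 lower (14.6%, background 25.4%), with a median of -0.05 against 0.02 over all genes. Psme2 was higher by 1.47 ± 0.08 (SE, edgeR adjusted p = 6.77e-11), Psmb10 by 0.90, Psmg4 by 0.83 and Psmd10, a chaperone of the ATPase ring, by 0.67. Psmg1 was lower by -1.25, Psmg2 by -1.04, Psmc3ip by -0.84, Psmb9 by -0.74 ± 0.08, Psmb5 by -0.72 ± 0.08, Psme3 by -0.65 and Psma4 by -0.62. Psmb8 (-0.11 ± 0.09), Psmb7 (0.19), Psme1 (0.18) and Psmb6 (-0.27) were not called. The call of Psmc3ip reversed, to 0.97, without the clusters of dividing cells, and so did its call between pDC-like and cDC1-like cells, to 0.76.

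With TMM scaling, mature DC-like cells exceeded cDC2-like cells in all 3 immunoproteasome genes. Of 48 tested, 13 were called higher (27.1%, background 24.0%) and 4 lower (8.33%, background 24.1%), with the share called higher close to the background. The median was 0.23 against -0.03 over all genes, and -0.03 against -0.29 with total UMIs alone, which made 8 calls higher and 6 lower. The 5 largest were Psme2 (2.24 ± 0.07, SE, edgeR adjusted p = 6.43e-15), Psmg4 (1.58), Psme1 (1.30), Psmb7 (1.13) and Psmd7 (1.05). Psmb8 was higher by 0.98 ± 0.07, Psmb10 by 0.90 ± 0.08 and Psmb9 by 0.72 ± 0.06. With total UMIs alone the Psmb9 difference was 0.46, short of 1.5-fold. Psmc3ip (-1.31), Psmg2 (-1.27), Psme2b (-1.10) and Psmg1 (-1.06) were lower. Psmb5 (-0.10) and Psmb6 (0.24) were not called. With total UMIs alone 34.8% of all calls were higher, against 49.9% with TMM.

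**Figure D3:**
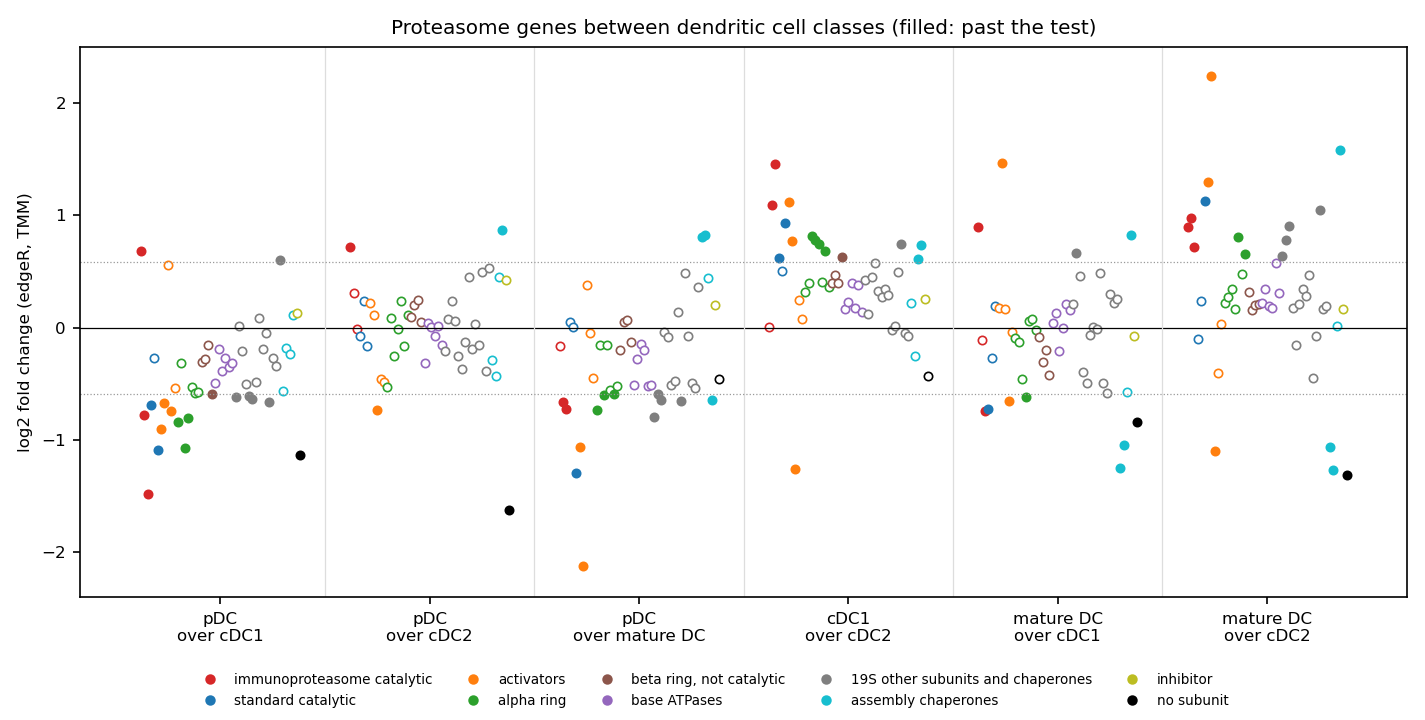
Log2 fold changes between DC classes (edgeR with TMM scaling) for the proteasome genes (vertical axis), 1 column per comparison and 1 point per gene coloured by its group, with called genes filled and dotted lines at 1.5-fold. Psme2 reaches 2.24 in mature DC-like over cDC2-like cells, and Psmb9 reaches 1.46 in cDC1-like over cDC2-like cells.

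Genes of other lists that act with the proteasome were read in the same fits (TMM), with the share of all genes called in that direction given as background. Among 11 genes that load class I MHC, 6 were called higher in cDC1-like than in cDC2-like cells (background 15.8%) and 0 lower, led by Pdia3 (1.58), Tap2 (1.56) and Tap1 (1.5), the last 2 encoding the peptide transporter. The same list gave 1 higher (background 25.7%) and 5 lower (24.3%) in pDC-like against cDC1-like cells, with H2-K1 at 0.80, Tap1 at -1.61, Tap2 at -1.24 and Pdia3 at -0.98. Against cDC2-like cells, pDC-like cells had 5 higher (background 22.6%) and 0 lower, led by H2-K1 (1.02), Tapbp (1.02) and Tapbpl (0.92). Against mature DC-like cells they had 1 higher, Pdia3 (0.61), and 7 lower (background 28.4%), led by Tapbpl (-1.68), Tap1 (-1.59) and B2m (-1.27). Mature DC-like cells had 7 higher (background 24.0%) and 0 lower against cDC2-like cells, led by Tapbpl (2.70), Tapbp (1.62) and H2-K1 (1.60). Against cDC1-like cells they had 5 higher (background 28.6%), led by B2m (1.57), Tapbpl (1.40) and H2-K1 (1.38), and 2 lower (25.4%), Pdia3 (-1.57) and Calr (-0.94). With total UMIs alone this list gave 5 higher and 0 lower (cDC1 over cDC2), 3 and 3 (pDC over cDC1), 6 and 0 (pDC over cDC2), 2 and 4 (pDC over mature DC), 7 and 0 (mature DC over cDC2) and 5 and 2 (mature DC over cDC1). Their background is the count of all genes called with that scaling, given above.

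Among 11 regulators, mature DC-like cells exceeded cDC2-like cells in Irf1 (2.84), Nlrc5 (2.80, an activator of class I genes) and Irf8 (2.43) and in Nfe2l1 (2.04), the factor that raises proteasome genes when proteasomes are blocked, and only Ddi2 was lower (-0.78). Against cDC1-like cells they exceeded in Irf1 (2.37), Nfe2l1 (2.07) and Nlrc5 (1.88) and were lower in Irf8 (-2.25). In pDC-like cells Stat2 was higher than in cDC1-like cells (1.69), with Ddi2 (1.25) and Irf1 (0.98), and Nlrc5 was lower (-0.63). Irf8 was higher in pDC-like than in cDC2-like cells by 5.22 and in cDC1-like than in cDC2-like cells by 4.67. Of the 11, 4 were called higher and 1 lower in mature DC over cDC2 (backgrounds 24.0% and 24.1%). The counts were 3 and 1 in mature DC over cDC1 (28.6% and 25.4%) and in pDC over cDC1 (25.7% and 24.3%). The 3 higher calls there were close to the background. The counts were 3 and 1 in pDC over cDC2 (22.6% and 22.2%) and 2 and 1 in cDC1 over cDC2 (15.8% and 18.8%). In the same order, total UMIs alone gave 4 and 2, 3 and 1, 6 and 0, 3 and 0, and 2 and 4. The background moved too, with 4262 higher and 1767 lower of 10739 genes in pDC over cDC1 under that scaling. Of 10 associated factors, 3 were lower in pDC-like cells than in cDC1-like ones, near the background of 24.3%, among them Pomp, the chaperone of the beta ring (-1.15), and total UMIs alone left 1. Pomp was also the 1 called between cDC1-like and cDC2-like cells (1.02 higher) and was lower in mature DC-like than in cDC1-like cells (-0.92). Of 14 ubiquitin genes, 4 were higher and 0 lower in mature DC-like than in cDC2-like cells, near the background of 24.0%, with the segregase Vcp at 1.51 and its cofactor Nploc4 at 1.46, and total UMIs alone gave 3 higher and 1 lower.

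Across the 24 combinations of class and sample, which share samples and classes, log2 levels of Psmb8 and Psmb9 had a correlation of 0.82, Psmb9 and Tap1 of 0.81, Psmb8 and Tap1 of 0.83, and Psmb8 and Psme1 of 0.91. Genes on other chromosomes were closer to Tap1 over these points, with Psmb7 at 0.94 and Psme1 at 0.93. Psmb9 and Psmb10 had -0.45. Across the 25 clusters of 50 or more cells, Psmb8 and Psmb9 had 0.94, Psmb9 and Tap1 0.87, Psmb8 and Psme1 0.85, Psmb9 and Psmb10 0.52, and Psmb7 and Tap1 0.10. They are descriptions, with no test, since the points share libraries and depth.

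Clusters within the mature DC class differed in their immunoproteasome levels. These clusters were made without the proteasome genes, but from the same cells, so they are described without a test. The 516 cells of the cluster led by Ccl17 and Ccl22, chemokines that attract T cells, had 1714 CPM of Psmb8, 368 of Psmb10 and 374 of Psmg4, and a share of 84.8%. In 6 of 6 samples this cluster was above the rest of its class in Psmb8 (1453 to 1887 against 774 to 1109), Psmb10 (323 to 384 against 153 to 196) and Psmg4 (340 to 387 against 119 to 163), while Psmb9 was above in 3 of 6. Another cluster of 235 cells, led by Elobl and Psca and with a median of only 2483 UMIs, had the highest Psme1 (2634) and Psme2 (2471). The 192 cells led by Gal, Clic3 and Col17a1 had a share of 55.6%, with Psmb7 at 354 CPM and Psmb8 at 477. In 6 of 6 samples Psmb8, Psmb9 and Psmb10 were below the rest of the class there, and Psmb5 and Psmb7 above it, with 4 cells in leukemia vehicle 2 and at least 10 in each of the others. The cluster led by Wfdc21 and Lta (586 cells) had a share of 73.8%. A cluster of 1088 cells led by Prph and Tnfrsf4 had the most Tap1 (365) of all clusters, with Psmb9 at 657.

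The mixture of these clusters differed between samples. The Ccl17 cluster made up 9.21% and 9.94% of mature DC-like cells in the 2 leukemia samples with vehicle and 16.4% and 12.2% in those with panobinostat. In WT it made up 10.7% with vehicle and 26.8% with panobinostat. The Wfdc21 cluster made up 36.0%, 24.2%, 25.8%, 24.4%, 7.68% and 3.76% in the same order. WT panobinostat thus had the most cells of the cluster with the highest share and the fewest of the Wfdc21 cluster, and it had the highest share of all mature DC-like samples (83.5%). The part of this mixture in the sample's value was not tested.

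Dividing and resting cells also differed. The cDC1-like cluster of dividing cells had a share of 78.1% and the largest other cDC1-like cluster 80.6%. The cDC2-like cluster of dividing cells had 68.7%, with Psmb5 at 222 CPM and Psmb6 at 206, against 75.8% in the largest cDC2-like cluster, with 153 and 128. In 6 of 6 samples Psmb8 was above the rest of the class in both dividing clusters, as were Psmb5, Psmb6 and Psmb7. Psmb8 ran from 1115 to 1440 CPM against 817 to 1228 (cDC1) and from 634 to 716 against 587 to 626 (cDC2). Psmb9 was above in 3 and 5 of 6 samples and Psmb10 in 1 and 0. Without the dividing clusters the mean share was 80.6% rather than 79.8% in cDC1-like and 75.4% rather than 73.6% in cDC2-like cells. A cDC1-like cluster led by Il12b and Cxcl9 had 317 CPM of Tap1 against 224 in the largest cDC1-like cluster, with a share of 80.9%. Its class is less sure: it had 5 raised cDC1 markers, none among its leading genes. At a Leiden resolution of 0.5 Il12b led a cluster named mature DC-like. An unnamed cluster of 183 cells led by the interferon-induced genes Ifi44 and Iigp1, with all 10 pDC markers raised, had 570 CPM of Psmb9, against 425 in the pDC-like class. Its Psmb10 was 290 against 247 and its Psmb8 870 against 849. Psmb9 and Psmb10 lay above the pDC-like class in 5 of 6 samples and Psmb8 in 3 of 6, with 1 cell in WT panobinostat. The share was 77.2% against 76.8%, so it was nearly level.

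**Figure D4:**
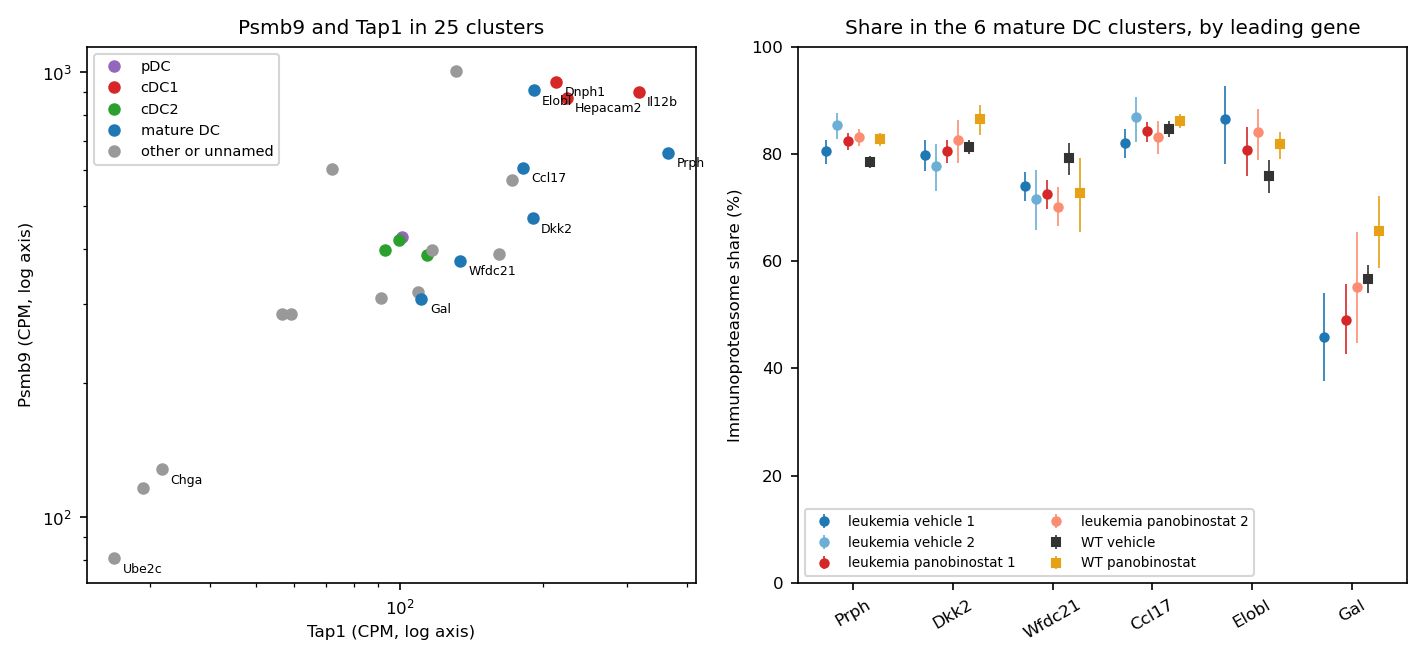
Left, Psmb9 against Tap1 (both in CPM on log axes) in the 25 clusters of 50 or more cells, coloured by class, with the mature DC-like, cDC1-like and erythroid-like ones marked by their leading gene. Right, immunoproteasome share (percent of the UMIs of the 6 catalytic genes) of the 6 mature DC-like clusters in each hashed sample with 10 or more cells there, with exact binomial 95% intervals. The Gal cluster lies between 45.8% and 65.7%, below the other 5 clusters of each sample shown.

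Panobinostat against vehicle was tested in each class with the disease as a covariate, at an adjusted p under 0.05 and with no minimum fold. No proteasome gene was called in any of the 4 classes by edgeR or by DESeq2. The background of all genes called in either direction was 0.188% in the pDC-like, 1.36% in the cDC1-like, 0.0204% in the cDC2-like and 0.0109% in the mature DC-like class. At an unadjusted p under 0.05, edgeR gave 2 proteasome genes with higher levels in pDC-like cells (background 3.97%), 13 of 49 in cDC1-like cells (8.25%), 2 in cDC2-like cells (3.81%) and 7 in mature DC-like cells (5.31%), and 0 with lower levels in each. Simulated 1.5-fold changes were called in 75% of genes with the design of the cDC1-like class, and in 43%, 50% and 49% with those of the pDC-like, cDC2-like and mature DC-like classes. The simulation left out genes with low counts and used the same spread between samples in every class. That spread was smaller than the one fitted in cDC1-like (7.68%), cDC2-like (8.22%) and mature DC-like cells (9.61%), and larger than in pDC-like cells (6.10%). The shares recovered are therefore too favourable for the cDC1-like, cDC2-like and mature DC-like classes.

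The members nearest to a call were in cDC1-like and mature DC-like cells. Psmd6 in cDC1-like cells was 85.7 and 84.2 CPM in the vehicle samples of leukemia, 98.7 and 103 in its panobinostat samples, 60.2 in WT with vehicle and 76.1 in WT with the drug, a log2 difference of 0.29 ± 0.08 (SE, edgeR adjusted p = 0.0786). Psmb8 there was 1198, 1155, 1282, 1319, 868 and 1058 in that order (0.20 ± 0.05, edgeR adjusted p = 0.0819). Both were higher with panobinostat within leukemia and within WT. In mature DC-like cells Psmb8 was 892 and 1041 in leukemia without the drug, 1027 and 1057 in leukemia with it, and 941 and 1293 in WT without and with it (0.32 ± 0.10, edgeR adjusted p = 0.258). Psmb10 there was 192, 205, 208, 215, 179 and 245 (0.32 ± 0.11, edgeR adjusted p = 0.340). The groups overlapped for Psmb8 and did not for Psmb10, and the WT pair had the larger step.

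The ratios of the catalytic pairs did not pass with panobinostat in any class, and 3 against 3 samples cannot give a p below 0.1. The 12 adjusted p-values lay between 0.450 and 0.600 (two-sided exact permutation test). The largest differences were -0.33 for Psmb10 to Psmb7 in pDC-like cells, where WT panobinostat rested on 39 cells, and 0.31 for the same pair and 0.20 for Psmb8 to Psmb5 in mature DC-like cells. Among the other lists, Calr (0.34 ± 0.06, edgeR adjusted p = 0.0196) and Pdia3 (0.30 ± 0.07, edgeR adjusted p = 0.0410), both of class I loading, rose with panobinostat in cDC1-like cells and the ubiquitin receptor Ubqln2 fell (-0.59 ± 0.14, edgeR adjusted p = 0.0474). In the interaction of disease and treatment 0 proteasome genes were called by edgeR in each class, against 0.233%, 0.309%, 0.421% and 0.164% of all genes in pDC-like, cDC1-like, cDC2-like and mature DC-like cells. At an unadjusted p under 0.05 (edgeR), the same 4 classes gave 1, 1, 5 and 6 proteasome genes, against 6.48%, 8.62%, 7.60% and 5.55% of all genes.

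Leukemia against WT gave calls in cDC1-like cells. Of 49 proteasome genes tested, 10 rose (20.4%, background 3.77%) and 0 fell (background 5.36%), and the median log2 difference was 0.19 against 0.0020 over all genes. At an unadjusted p under 0.05 (edgeR) they numbered 25 of 49, against 23.5% of all genes. Psmd7, a scaffold of the regulatory particle lid, was 104 and 95.5 CPM in leukemia with vehicle, 94.4 and 98.1 in leukemia with panobinostat, and 63.5 and 74.2 in WT with vehicle and with panobinostat (0.41 ± 0.09, SE, edgeR adjusted p = 0.00828). All 4 leukemia samples lay above both WT samples, as they did for Psmb8 in the values above (0.26 ± 0.06, edgeR adjusted p = 0.0103). The others called were Psmg3 (0.36), Psmd6 (0.35), Psma4 (0.29), Psmd12 (0.28), Psmb10 (0.28), Psma5 (0.27), Psmb2 (0.25) and Psma7 (0.24). Psmb9 (0.14), Psmb5 (0.23), Psmb6 (0.20), Psmb7 (0.23), Psme1 (0.06) and Psme2 (0.13) were not called. The immunoproteasome share did not separate these samples, at 79.5% to 80.2% in leukemia and 79.6% and 80.0% in WT.

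The number of calls changed when single samples were left out, in fits whose share of all genes called is not given. A loss of calls over all genes can therefore not be told from a change in these genes. There were 0 without leukemia vehicle 1, 1 without WT vehicle, 3 without leukemia panobinostat 2, 6 without leukemia vehicle 2 and 16 without leukemia panobinostat 1. The fold changes of the 10 genes moved less: they ran from 0.24 to 0.41 with all samples, from 0.22 to 0.40 without leukemia vehicle 1 and from 0.16 to 0.39 without WT vehicle. Without WT panobinostat they ran from 0.18 to 0.52. DESeq2 gave 4 calls, with 157 of all genes called higher, and total UMIs alone gave 25, with 872 of all genes called higher. The main fit called 377 of 10001 genes higher. With total UMIs alone 73.8% of all calls were higher, against 41.3% with TMM. WT vehicle cDC1-like cells were also the shallowest, at a median of 11194 UMIs against 12730 to 14093, and had the least summed cycling genes (896 CPM against 1136 to 1763), and the part of either was not tested. With cells thinned to 2000 UMIs there were 2 calls, and without the dividing clusters 5. In the other classes no proteasome gene was called for leukemia: 0 of 48 in pDC-like (background 0.761% in either direction), cDC2-like (0.163%) and mature DC-like cells (1.27%), and 0 by DESeq2. At an unadjusted p under 0.05 (edgeR) there were 2 (background 7.45%), 0 (7.04%) and 6 (10.7%). The median log2 difference of the 48 genes in mature DC-like cells was -0.14 against 0.0006 over all genes, and 5 of 48 had a positive value. Whether the leukemia difference itself differed between classes was not tested.

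Genes of the other lists also differed between leukemia and WT by edgeR. In cDC1-like cells Calr (0.42), Pdia3 (0.35) and Txnl1 (0.27) rose, while Irf2 (-0.28), Ubb (-0.27) and Rps27a (-0.26) fell. Ubb was also lower in pDC-like cells (-0.24).

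**Figure D5:**
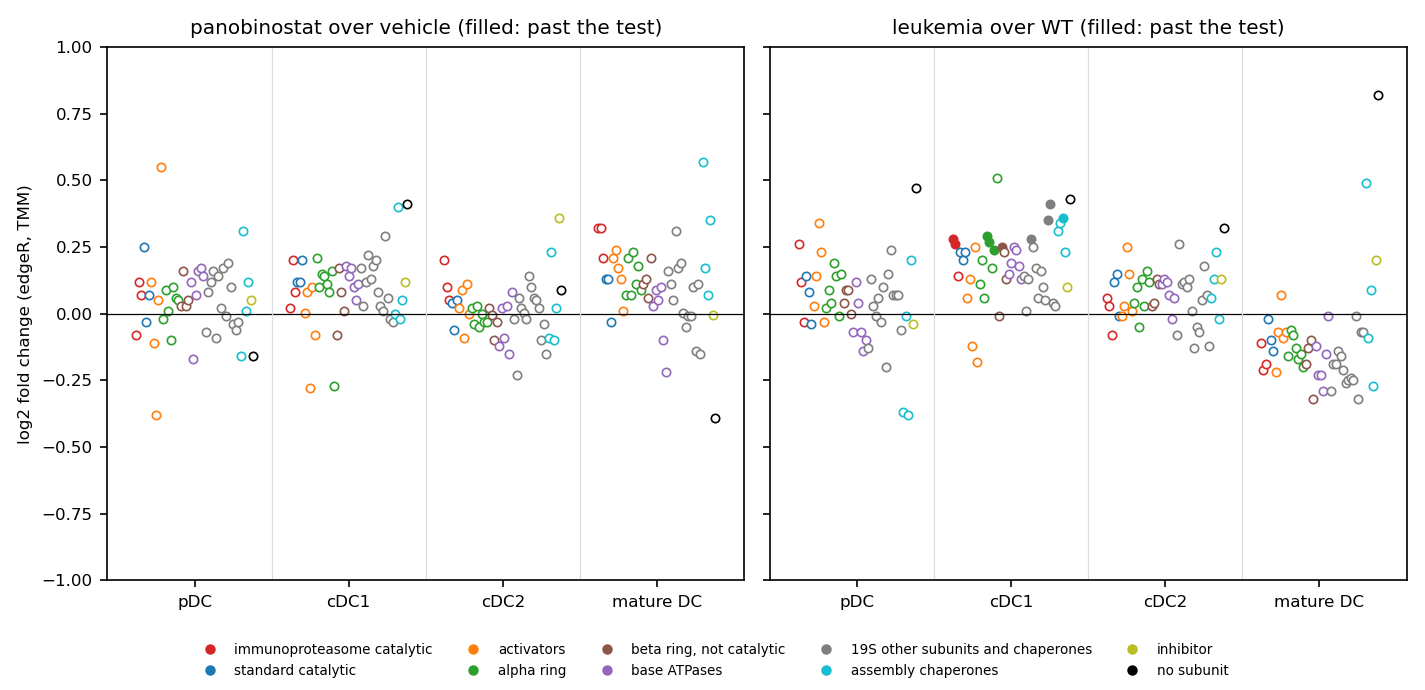
Log2 differences of the proteasome genes for panobinostat over vehicle and for leukemia over WT in each DC class (edgeR), 1 point per gene coloured by its group, with called genes filled. Calls occur only for leukemia in cDC1-like cells, where 10 genes lie between 0.24 and 0.41.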

How the data were processed

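The deposited files hold counts: whole-number UMI counts per gene, hashtag and antibody (CD11c, Siglec-H) for each barcode of 1 capture, made by the authors with Cell Ranger 3.1.0 on mm10 (GRCm38) and followed by Seurat 3.1.0, per the submitters' processing notes. The authors' filters and cell annotation were not given in the sources used here. Disease and treatment were read from the hashtag names, by matching them to the labels' groups.

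A barcode was kept at a minimum of 500 genes and a mitochondrial share of UMIs no higher than 10%, if exactly 1 hashtag exceeded its background's 99% point (22521 of 38717 barcodes had 1, 12653 several and 3543 none). Doublets, simulated from pairs of barcodes, were removed at a score of 0.5, which marked 10.6% of 1-hashtag cells and 45.0% of several-hashtag cells; the prior share of 0.4 was set after the data were seen. Kept cells per sample numbered 1694 to 6708. Cells were clustered (leidenalg 0.10.2, resolution 1, 2000 variable genes without the proteasome genes and the listed genes) and named from marker lists; an acinar list was added after the data were seen. In the RNA the named pDC-like class had a median of 460 Siglec-H antibody counts, against 240 to 248 in the other DC-like classes.

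UMIs were summed per class and sample with 10 or more cells and tested with edgeR 4.0.16 (TMM, filterByExpr, quasi-likelihood, Benjamini-Hochberg over all genes tested); a low-expression filter left 48 or 49 of the 50 genes. DESeq2 1.42.0, total-UMI scaling, no filter, other hashtag, doublet and cluster settings, thinning to 2000 UMIs and leaving out each sample were alternatives. The fit was tested on simulated data. A single value was tested by exact permutation (scipy 1.17.1). All 50 genes are accounted for. Named in full are the catalytic genes, the activators and the highest and lowest of each group, and per comparison all called genes up to 10 in a direction, otherwise the 5 largest. The members and lists were chosen with earlier results of these data known. Gene positions and overlaps are from GENCODE M21: exons of Psmb9 overlap Tap1, those of Psme1 overlap Emc9, those of Psmb7 overlap Nek6 and those of Psmd1 overlap Htr2b on the opposite strand, and strand use in counting was not given in the sources used here. Results of some genes on the other lists are not reported here.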

Additional observations from a re-analysis of the deposited data

Results flagged for a closer look

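In 3 ratios the 2 leukemia panobinostat samples lay above the 2 leukemia vehicle samples while the WT panobinostat sample lay below the WT vehicle sample. None of these differences between leukemia and WT was tested, and WT had 1 sample per treatment. The log2 ratio of Psmb8 to Psmb5 differed by 0.13 in leukemia and by -0.0047 in WT in cDC1-like cells, and by 0.13 and -0.05 in cDC2-like cells. That of Psmb9 to Psmb6 in cDC2-like cells differed by 0.18 in leukemia and by -0.02 in WT.

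Among 48 groups of 6 samples checked for a single sample far from the other 5, 6 had one, where chance alone gives about 1 in 20. In pDC-like cells WT panobinostat, with 39 cells, stood apart in Psmb10 (149 CPM), Psmb6 (169 CPM) and the log2 ratio of Psmb9 to Psmb6 (1.47), and leukemia panobinostat 2 in the log2 ratio of Psmb8 to Psmb5 (2.02). In mature DC-like cells leukemia vehicle 2 was low in Psmb6 (140 CPM) and WT panobinostat high in the log2 ratio of Psmb8 to Psmb5 (3.27).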

How the results depend on the processing

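For the 6 catalytic genes, Psme1, Psme2 and each gene already called in a comparison, 2623 values under the alternatives kept their direction and their side of the threshold, 177 lost the call, 23 gained one and 2 reversed. Calls gained by other proteasome genes are in the counts below. Both reversals were Psmc3ip without the dividing clusters, an alternative chosen after seeing the data: 0.76 in pDC over cDC1 and 0.97 in mature DC over cDC1. With an adjusted p alone and no minimum fold, the class comparisons called 39 (pDC over cDC1), 27 (pDC over cDC2), 31 (pDC over mature DC), 38 (cDC1 over cDC2), 25 (mature DC over cDC1) and 37 (mature DC over cDC2) proteasome genes. Dropping the minimum fold can only add calls, among all genes as well, and the share of all genes is not given here. Total UMIs without TMM gave 7, 9 and 6 calls in pDC over cDC1, pDC over mature DC and cDC1 over cDC2, and 25 in leukemia over WT in cDC1. Thinning to 2000 UMIs per cell gave 7 in pDC over cDC2, 8 in pDC over mature DC and 2 in leukemia over WT in cDC1. Without a filter on low counts there were 26 calls in pDC over mature DC, 1 for panobinostat in cDC1 and 2 for panobinostat in mature DC. A Leiden resolution of 0.5 gave 2 for panobinostat in cDC1. For leukemia over WT in cDC1, DESeq2 gave 4 and leaving out the dividing clusters 5. These counts, and those of the next paragraph, stand without the share of all genes called under the same setting. They show only how the calls moved.

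Leaving out 1 sample at a time gave 16 to 21 calls in pDC over cDC1, 4 to 7 in pDC over cDC2, 10 to 19 in pDC over mature DC, 13 to 16 in cDC1 over cDC2, 11 to 13 in mature DC over cDC1, 15 to 18 in mature DC over cDC2 and 0 to 16 for leukemia in cDC1. It gave 0 for panobinostat in every class and for leukemia in the other classes. The mean immunoproteasome share moved past 1 SD in 3 cases: 75.8% in pDC when thinned, and 80.6% in cDC1 and 75.4% in cDC2 without dividing clusters. The labels do not say what hashed samples with the same number share. The correlation of their deviations was 0.029 to 0.082 in the 4 classes. It was taken over genes that include low counts, whose counting error lowers it, so it cannot show whether a preparation was shared. With the number as a replicate block, 0 proteasome genes were called for panobinostat in each class. A planned rule for dividing clusters, based on leading genes, found no DC cluster and was not run. The sign-flip test with 5 samples cannot reach 0.05 and was not run. In WT panobinostat pDC-like cells, 207647 UMIs limit every value, and causes of these shifts were not tested.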

Other observations

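Cells that were given no class also differed in their catalytic genes. An unnamed cluster of 980 cells led by pancreatic enzyme genes (Ctrb1, Prss2, Sycn) had Psmb8 at 1227 CPM, Psmb9 at 1001, Psmb10 at 122 and Psmb5 at 238, and an immunoproteasome share of 80.4% (exact binomial 95% interval 79.9% to 81.0%). These values lie within the range of the cDC1-like samples for all 4 genes. Its other levels lay further off. Psme1 stood at 1548 CPM against 1145 in pooled cDC1-like cells, Psme2 at 563 against 475 and Tap1 at 131 against 231. An unnamed cluster of 156 cells led by Nkg7 and Xcl1 of natural killer cells and by Mpo and Prtn3 of granulocyte precursors had a share of 66.7% (64.5% to 68.8%), with Psmb8 at 639 and Psmb9 at 310. A small mast or basophil-like cluster of 38 cells led by the basophil protease Mcpt8 had 73.6% (68.8% to 78.1%), against 35.2% (34.5% to 35.8%) in the large one of 1425 cells led by Cited1 and Gfi1b. Psmb8 stood at 653 and 169 CPM in these 2 clusters, and Psmg1 at 17.9 and 46.9. Psmd7 was 222 in the large cluster and 206 in the dividing erythroid-like one, above the 134 of the highest DC-like sample. The small cluster and the class it shares are pooled values over samples, with no test.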
